A study of Homo sapiens with 6 samples.

Results

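Small structured RNAs were examined in RIP-Seq lists of CELF1 (also named CUGBP1), an RNA-binding protein, from 2 melanoma cell lines. The lists hold genomic bins of 20 bp that passed a comparison of reads recovered with the CELF1 antibody (IP) against reads of the same lysate (input). A bin was taken where its centre lay in an exon of a gene annotated as snRNA, snoRNA, scaRNA, misc_RNA or ribozyme in the GENCODE annotation of GRCh37, with the transcript strand taken as the reverse of the listed strand. This gave 824 bins of 1589987 listed in any sample, in 380 of 5406 annotated genes. Of these bins, 427 lay in 175 snoRNA genes, 179 in 111 misc_RNA genes, 129 in 77 snRNA genes, 78 in 16 scaRNA genes and 11 in a single ribozyme gene, RMRP.

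These RNAs act in complexes with proteins and not as templates for protein. The snRNAs are the RNA cores of the spliceosome, the machine that removes introns. H/ACA and C/D snoRNAs guide the chemical modification of ribosomal RNA, as scaRNAs do for snRNAs in Cajal bodies, and most of them are cut out of introns of host genes. The class misc_RNA collects 7SL, the scaffold of the signal recognition particle, 7SK, which holds the elongation kinase P-TEFb in check, the Y RNAs bound by Ro60, and the vault RNAs, whereas RMRP is the RNA of RNase MRP, which cuts precursor ribosomal RNA. CELF1 is known for binding GU-rich elements of mRNAs.

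Each IP sample was listed against its own input, 1 from SK-Mel-103 (SK-Mel-103 R1) and 2 from UACC-62 (UACC-62 R1 and UACC-62 R3). Both are established human melanoma lines. The labels give no treatment or genetic change, and the cells were fixed in formaldehyde before precipitation with the CUGBP1 antibody. Where 3 values follow one another, they stand in this order of samples. SK-Mel-103 had no replicates, while the UACC-62 samples were biological duplicates, so that spread can be judged only in that line. The labels call the IP RNA poly A+ and the input simply input RNA, the methods state removal of ribosomal RNA from both, and the part of any difference in RNA selection was not tested. The lists held between 780750 and 862731 bins, with 10958459 to 14436573 IP reads and 8453517 to 10161917 recovered input reads. Melanocyte lineage genes separated the lines. TYR and DCT, which encode enzymes of melanin synthesis, had no listed bin in SK-Mel-103 but did in UACC-62, SOX10 was listed in all samples, and AXL reached 5796 IP reads in SK-Mel-103 against 21 and 24 in UACC-62. PMEL, a further lineage gene, had no listed bin in any sample. Levels are given as log2 IP over input, that is the reads of a gene or type in its listed bins divided by the total of that column, with 1 read added, IP relative to input. Since only passing bins are listed, each value is conditional on that selection. With 3 IP samples an exact sign-flip test cannot go below p = 0.25, and no test was run. A pair of types was called different only where the difference had 1 sign in all samples and its mean was larger than the difference between the UACC-62 replicates.

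The sequences of 5 RNAs that carry many of the IP reads of their type, or that stand at the low end, are given as the transcript reads from 5′ to 3′, with T for U. The capitals mark the 20-base bin with most IP reads. All are of GRCh37, and lie at chr9:35657751-35658014 (RMRP, minus strand), chr12:120730900-120731040 (RNU4-1, minus strand), chr1:28835071-28835274 (SNORA73B, plus strand), chr2:234184373-234184648 (SCARNA5, plus strand) and chr7:148638580-148638658 (RNY5, plus strand). RMRP and RNU4-1 lie outside other genes. SNORA73B and SCARNA5 are intronic, in RCC1 and SNHG3 and in ATG16L1, respectively, whereas RNY5 lies within an exon of a lncRNA gene.
RMRP: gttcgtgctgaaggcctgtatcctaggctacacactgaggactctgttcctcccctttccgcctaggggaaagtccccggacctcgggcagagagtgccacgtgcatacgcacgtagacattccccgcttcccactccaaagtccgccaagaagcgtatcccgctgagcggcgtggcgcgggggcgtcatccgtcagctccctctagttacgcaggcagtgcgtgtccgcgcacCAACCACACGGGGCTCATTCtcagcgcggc
RNU4-1: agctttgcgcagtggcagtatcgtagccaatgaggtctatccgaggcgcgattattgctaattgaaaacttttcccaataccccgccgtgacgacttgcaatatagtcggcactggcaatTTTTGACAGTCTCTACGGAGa
SNORA73B: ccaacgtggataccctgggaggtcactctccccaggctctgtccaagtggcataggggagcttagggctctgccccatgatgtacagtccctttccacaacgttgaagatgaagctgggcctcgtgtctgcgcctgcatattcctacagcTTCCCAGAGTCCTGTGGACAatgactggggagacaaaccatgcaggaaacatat
SCARNA5: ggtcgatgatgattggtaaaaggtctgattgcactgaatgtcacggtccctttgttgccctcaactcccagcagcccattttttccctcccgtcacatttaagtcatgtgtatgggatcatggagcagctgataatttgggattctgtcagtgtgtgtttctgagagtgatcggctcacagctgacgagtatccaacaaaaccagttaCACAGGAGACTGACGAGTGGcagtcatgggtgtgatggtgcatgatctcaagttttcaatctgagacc
RNY5: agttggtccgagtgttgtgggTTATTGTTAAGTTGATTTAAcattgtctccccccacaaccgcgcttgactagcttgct

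The RNA types did not stand at one level, and snoRNAs were the highest by mean. In all 3 IP samples snoRNAs lay above scaRNAs, above misc_RNA and above RMRP. Pooled over their bins, the snoRNA level was 0.86, -0.11 and 1.36, lowest in UACC-62 R1 (mean 0.70 ± 0.75, SD, n = 3). The corresponding values of snRNAs were 1.08, 0.01 and -0.31 (0.26 ± 0.73). The snRNAs thus lay above the snoRNAs in SK-Mel-103 R1 and UACC-62 R1, and below them in UACC-62 R3. Without UACC-62 R3 the mean was 0.54 for snRNAs and 0.37 for snoRNAs. For scaRNAs the 3 values were 0.14, -0.66 and 0.95 (0.14 ± 0.81). At the lower end stood misc_RNA, with 0.16, -1.53 and -0.77 (-0.71 ± 0.85), and RMRP, with 0.12, -1.54 and -0.94 (-0.79 ± 0.84). Protein-coding exons, the bulk of the lists, stayed close to 0 at -0.18, -0.24 and -0.12. They hold most of the reads to which all levels are scaled, so values near 0 largely follow from the scaling. Exact 95% intervals cover counting error only and were narrow, for example 0.80 to 0.91 for snoRNAs in SK-Mel-103 R1 and -0.18 to -0.05 in UACC-62 R1. The spread between samples was far wider than these intervals.

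Of the 10 pairs of types, 7 had 1 sign in all samples and 4 also exceeded the difference between the UACC-62 replicates. The snoRNAs exceeded the scaRNAs by 0.71, 0.55 and 0.41, with a replicate difference of 0.14. They exceeded misc_RNA by 0.69, 1.41 and 2.13 (replicate difference 0.72) and RMRP by 0.73, 1.43 and 2.30 (0.86). The snRNAs exceeded RMRP by 0.95, 1.55 and 0.63 (0.93). Only the pair of snoRNA over scaRNA met the rule under all 8 ways of summing the reads that were tried. None of these ways split the snoRNAs. The C/D snoRNAs alone lay below scaRNAs in UACC-62 R3 (0.50 against 0.95), whereas H/ACA snoRNAs lay above them (1.54). The pairs of snoRNA over misc_RNA, snoRNA over RMRP and snRNA over RMRP met it in 7 of the 8. With only bins whose sequence occurs once in the genome, snRNA over RMRP failed it (mean 1.14, replicate difference 1.24). The difference of snoRNA to protein-coding exons was 1.03, 0.12 and 1.48, and its mean of 0.88 was below the replicate difference of 1.36. The mean of scaRNAs turned to -0.26 without UACC-62 R3, and that of snRNAs to -0.15 without SK-Mel-103 R1.

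**Figure D1:**
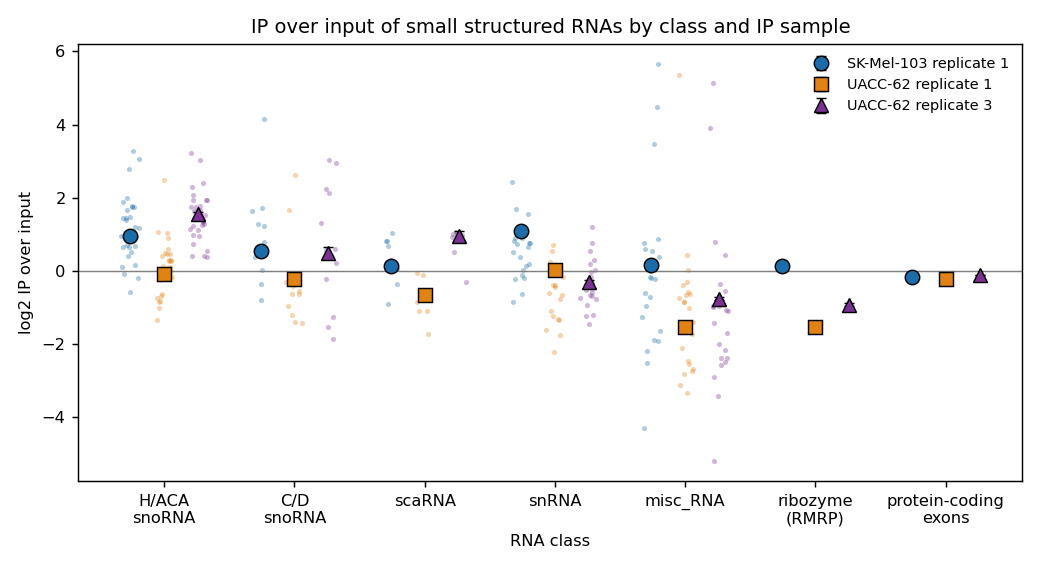
Log2 IP over input by RNA class (x axis) in the 3 IP samples. Large symbols are reads pooled over the class with exact 95% intervals, which are mostly smaller than the symbol, and small points are single RNAs with at least 20 IP plus input reads in every sample. H/ACA snoRNAs lie at 0.94, -0.09 and 1.54, whereas misc_RNA and RMRP lie below 0 in both UACC-62 replicates.

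As bins, the small RNAs were found more often in every sample, and more often with many reads, than the lists as a whole. In all, 294 of the 824 bins (35.7%) were listed in all 3 samples, beside 17.8% of all listed bins and 29.4% of those in protein-coding exons. That share was 72.7% in RMRP, 62.8% in scaRNAs, 40.3% in snRNAs, 33.5% in snoRNAs and 23.5% in misc_RNA. More than 30 IP reads, the filter of the authors, was reached by 143 of 574 bins (24.9%), 93 of 465 (20.0%) and 130 of 525 (24.8%). The shares over all listed bins were 6.85%, 7.44% and 9.85%. A log2 IP over input above 1 was found in 34.8%, 20.0% and 44.8% of the bins, beside 31.3%, 45.1% and 44.7% of all listed bins. The share was thus close to that of the whole list in SK-Mel-103 R1 and UACC-62 R3, and lower in UACC-62 R1.

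The H/ACA snoRNAs, which held most of the snoRNA bins, were led in IP reads by SNORA73B (also known as U17), an RNA needed for the early cuts of precursor ribosomal RNA. SNORA73B had 2399, 930 and 2907 IP reads against 1171, 961 and 528 input reads. This RNA alone held 24.5%, 23.6% and 30.1% of all IP reads in snoRNAs. Its log2 IP over input was 0.66, -0.20 and 1.76, above 0 in all but UACC-62 R1. SNORA74A, in an intron of MATR3 and SNHG4, had 529, 480 and 1552 IP reads against 156, 324 and 226 input reads, giving 1.38, 0.41 and 2.08. SNORA63, in an exon of the translation factor gene EIF4A2, likewise stayed above 0 at 1.76, 0.45 and 1.32. SNORA74, a related gene upstream of SNORA74A in the same hosts, was the highest H/ACA RNA by mean, with only 70, 74 and 146 IP reads and a log2 of 2.78, 1.03 and 3.04. SNORA53 and SNORA23, in introns of SLC25A3 and IPO7, were above 0 in SK-Mel-103 (0.91 and 1.88) and in UACC-62 R3 (0.40 and 1.36), but not in UACC-62 R1 (-1.33 and -0.17).

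Among single RNAs with at least 20 reads, IP plus input, in every sample, 17 of 29 H/ACA RNAs were above 0 in all 3 samples and none below. For protein-coding genes under the same minimum of reads, the shares were 27.6% above and 49.9% below in all samples. Only 29 of the 81 H/ACA genes with a listed bin reached this minimum, and the count says nothing of the others. The medians over the 29 RNAs were 1.16, 0.10 and 1.38.

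C/D snoRNAs were shallower and nearer to the level of other RNAs. Their pooled values were 0.53, -0.22 and 0.50, from 93 genes, of which 12 reached 20 reads in every sample. Of these 12, 2 were above 0 in all samples, 2 below in all and 8 of mixed sign. Both RNAs above 0 were copies named snoU13. The copy in an intron of SLC37A3 had 22, 52 and 65 IP reads against 0, 14 and 4 input reads, which is at least 5.66-fold in SK-Mel-103 R1 if the limit of 3 reads is taken for the missing input. SNORD3A, the U3 snoRNA that base-pairs with precursor ribosomal RNA, had a log2 of 1.22 in SK-Mel-103 but -0.57 and -1.55 in UACC-62. Another copy, SNORD3C, was below 0 throughout (-0.81, -0.65 and -1.26). The annotated entries of SNORD3A and SNORD3C span 699 and 581 nt, and all their bins were counted. SNORD118, the U8 snoRNA, reached 1.28, -0.42 and 1.32 with 100, 49 and 100 IP reads. The lowest was SNORD58B, within an exon of RPL17, with 14, 6 and 7 IP reads and a log2 of -0.37, -1.44 and -1.87. The SNORD3 copies share sequence, and reads could be split between them.

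Many of these bins lie inside other genes, where reads of a host transcript could be counted with the small RNA. Of the 824 bins, 44.7% were in introns of other genes, 26.8% in exons of protein-coding genes, 7.5% in exons of lncRNA genes and 21.0% outside. For RNAs lying in introns, the IP reads in the RNA were therefore set against listed bins within 200 nt on either side. In 42 intronic H/ACA RNAs the density was 796, 332 and 952 IP reads per kb in the RNA, but 39.0, 22.4 and 23.3 in the flanks. In 13 scaRNAs it was 784, 481 and 738 against 47.1, 28.5 and 47.1. The 38 C/D RNAs had 186, 54.8 and 129 against 28.8, 24.7 and 33.4. The excess over the flanks was thus smallest for C/D RNAs, of which 23, 17 and 19 were denser than their own flanks, compared with 31, 29 and 35 of the H/ACA RNAs. The RNAs entered because they had a listed bin and the flanks did not, which favours the RNA in these values. Only 19, 18 and 21 of the 42 H/ACA RNAs and 20, 18 and 22 of the 38 C/D RNAs had a listed flank bin. The densities are pooled, and few RNAs weigh on them. SNORA73B alone held 2399, 930 and 2907 of the 5248, 2191 and 6276 IP reads in the H/ACA RNAs. SNORD17 held 343, 45 and 96 of the 737, 217 and 509 in the C/D RNAs.

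**Figure D2:**
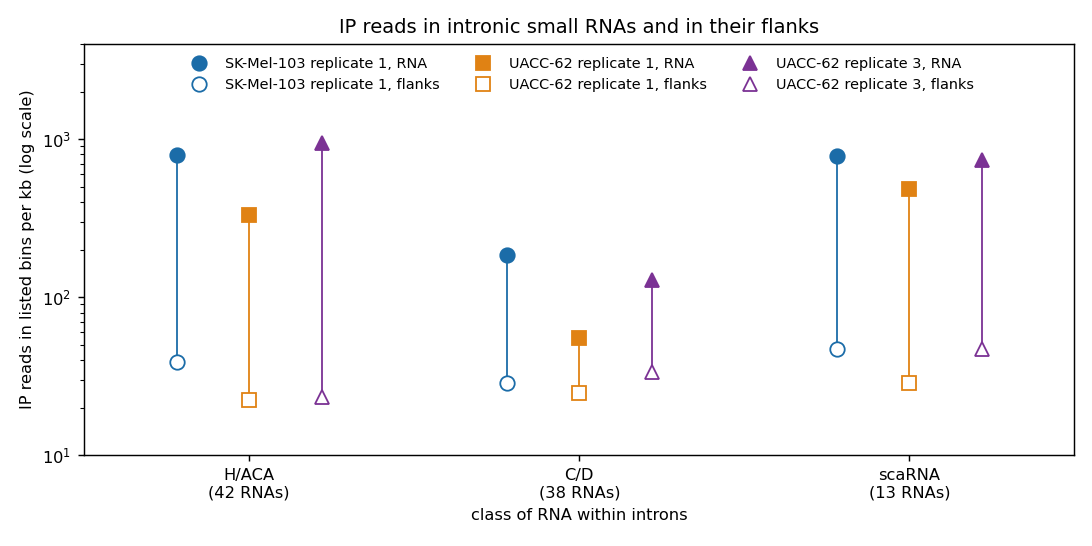
IP reads in listed bins per kb (log axis), pooled over intronic H/ACA, C/D and scaRNAs (filled symbols) and over 200 nt on both sides of them (open symbols), for each IP sample. The flanks lie between 22.4 and 47.1 reads per kb in all classes, whereas H/ACA RNAs and scaRNAs reach 332 to 952 and C/D RNAs 54.8 to 186.

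The scaRNAs, which share the guide function but reside in Cajal bodies, were each lower in UACC-62 R1 than in UACC-62 R3 where reads sufficed. SCARNA7, in an intron of KPNA4, had 795, 308 and 658 IP reads against 787, 599 and 208 input reads, with a log2 of -0.36, -1.11 and 0.96. SCARNA5 had 495, 412 and 572 against 372, 600 and 171, with 0.04, -0.70 and 1.04. Its neighbour SCARNA6 in another intron of ATG16L1 gave 0.68, -0.12 and 1.01. SCARNA13 (0.82, -0.07 and 0.99) and SCARNA12 (0.28, -0.59 and 1.06) followed the same order of samples. All 8 scaRNAs with 20 reads in every sample were lower in UACC-62 R1 than in R3, and none had 1 sign in all samples. That order of the replicates was not particular to scaRNAs. It was found in 36 of 41 snoRNAs and in 71.8% of protein-coding genes under the same minimum of reads. The lowest by mean were SCARNA1, which was above 0 in SK-Mel-103 (0.80) and below in both UACC-62 samples (-1.73 and -0.31), and SCARNA21 (-0.90, -1.09 and 0.92).

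The snRNAs had the most IP reads of the types in every sample (26454, 20250 and 10641), and were led by U4 and U2. RNU4-1 and RNU4-2 are the copies of U4, which escorts U6 into the spliceosome. RNU4-1 had 6350 IP reads in SK-Mel-103 and 1767 and 1276 in UACC-62, against 2208, 1611 and 537 input reads, with a log2 of 1.15, -0.02 and 0.55. RNU4-2 had 2386, 502 and 491 against 571, 381 and 177, with 1.69, 0.24 and 0.77. Both were higher in SK-Mel-103 than in either UACC-62 sample, and the lead bin of RNU4-1 occurs 3 times in the genome. RNU5A-1 of the U5 particle, which aligns the exons, had 2511, 344 and 263 IP reads against 1136, 405 and 70 input reads, with a log2 below 0 only in UACC-62 R1 (-0.39), while the copy RNU5E-1 stayed below 0 (-0.10, -1.31 and -0.78). Both hold sequence that occurs up to 9 times in the genome, and reads could be split between such copies. Bins of sequence that occurs once held 52.1%, 80.1% and 73.1% of the snRNA IP reads. Of the minor spliceosome, RNU11 and RNU12 were not analysed. RNU6ATAC was at 0.03, -2.21 and -1.45, and RNU4ATAC was below 0 in each sample (-0.65, -1.63 and -0.93). RNVU1-6, a variant of U1, was also below 0 in each sample (-0.86, -1.76 and -1.21), whereas the U2 copy RNU2-17P, on few reads, had 2.43, 0.55 and -0.53. Of the other RNAs looked for, RNU1-1, RNU6-1 and RNU7-1 had no listed bin.

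RNU2-2P, a U2 copy within an exon of WDR74, had 1600, 10756 and 4688 IP reads against 737, 5965 and 4304 input reads. Its log2 was 0.74, 0.69 and -0.57, and the values of both UACC-62 samples rested on 1 bin that was not listed in SK-Mel-103. That bin, at chr11:62609121-62609140 on the minus strand, held 10174 and 4075 IP reads and 5252 and 3994 input reads. Over the bins listed in all 3 samples the log2 was 0.74, -0.45 and 0.28, so that the direction in UACC-62 turned in both replicates.

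Some reads fell in copies of U2 and 7SK that differ by few bases from the RNA they were compared with, here called the parent. These copies shaped the value of their type. The parent was RN7SK for 7SK. For U2 it was RNU2-2P, itself a U2 copy, as RNU2-1 was not analysed. RNU2-64P, outside other genes on chromosome 3, had 5587 IP reads in SK-Mel-103 without any input read and no listed bin in UACC-62. This is at least 1437-fold over the limit of 3 input reads. RN7SKP76, in an intron of CDH8, carried a single bin with 1310, 90 and 1363 IP reads against 19, 1 and 23 input reads, and its log2 of 5.66, 5.35 and 5.13 was the highest of all RNAs with 20 reads in every sample. RN7SKP227 also had a single bin, with 831, 439 and 1060 IP reads, but its input of 351, 3975 and 43 reads put the log2 at 0.87, -3.33 and 3.89. The bins are shown with the matching stretch of the parent, capitals marking the bases that differ from it. They lie at chr16:61777101-61777120 (RN7SKP76, minus strand), chr3:36726781-36726800 (RN7SKP227, plus strand) and chr3:73160261-73160280 (RNU2-64P, plus strand).
RN7SKP76: tagtcGagcttccaagacCT
RN7SK at nt 265 to 284: tagtcaagcttccaagactc
RN7SKP227: ggagaaTgtagggtagtcaa
RN7SK at nt 252 to 271: ggagaacgtagggtagtcaa
RNU2-64P: gaataggagcttgctcTCtc
RNU2-2P at nt 119 to 138: gaataggagcttgctccgtc

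The stretches shared 17, 19 and 18 of 20 bases with the parent, and each, taken with its neighbouring bases as a run of 32, occurs once in the genome. How the aligner placed reads of the parent RNA with a mismatch was not tested. Without RNU2-64P the snRNA value in SK-Mel-103 was 0.73 instead of 1.08, and the U2 family went from 2.21 to 0.73. Without RN7SKP76 and RN7SKP227 misc_RNA stood at -0.24, -1.12 and -1.23, and was thus below 0 in all samples. The snoRNAs then still exceeded misc_RNA in each sample, but the mean of 1.56 fell short of the replicate difference of 1.58.

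Within misc_RNA, 7SL, 7SK, Y and vault RNAs were each examined. RN7SL2 lies within an exon of a lncRNA gene, and its 3 bins hold sequence found up to 4 times in the genome. Its lead bin, nt 288 to 307, passes the 3′ end of the RNA of 297 nt. RN7SL2 held between 35.4% and 41.2% of the IP reads of the type. It had 2875, 1641 and 3612 IP reads against 1311, 2345 and 4419 input reads, with a log2 of 0.76 in SK-Mel-103 and -0.67 and -0.99 in UACC-62. RN7SK itself, on 591, 776 and 570 IP reads against 1421, 1827 and 1975 input reads, was below 0 in every sample (-1.64, -1.39 and -2.49). The 7SK family as a whole was at 0.16, -1.98 and -0.20, and at -1.40, -1.19 and -1.62 without RN7SKP76 and RN7SKP227. RN7SKP48, whose lead bin matches RN7SK in all 20 bases, was lowest of the type by mean, at -4.30, -0.76 and -5.22. RN7SL445P, with 28, 17 and 8 IP reads, ranged from no input read in SK-Mel-103 to -2.39 in UACC-62 R3.

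By the mean over the 3 samples, Y and vault RNAs were the families furthest below 0. The Y RNAs had pooled values of -1.17, -2.64 and -2.56, from 265, 192 and 210 IP reads against 461, 1074 and 767 input reads. RNY5 had a single bin with 133, 85 and 79 IP reads against 169, 515 and 366 input reads, and a log2 of -0.72, -2.74 and -2.90. A Y RNA copy in an exon of ALDH9A1 was similar at -2.19, -3.13 and -2.58. RNY1 had 4, 0 and 5 IP reads, and RNY3 and RNY4 had no listed bin. The vault RNAs, components of the large vault particle, pooled to -1.11, -1.95 and -1.35, and VTRNA1-1 had 201, 221 and 271 IP reads against 237, 660 and 356 input reads (-0.61, -1.73 and -1.09). Of the 23 misc_RNA genes with 20 reads in every sample, 12 were below 0 in all samples and 2 above, beside 49.9% and 27.6% of protein-coding genes, so that the number below 0 was close to the background. The RNAs above 0 were RN7SKP76 and RN7SL731P, the latter named after its values were seen.

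Summed over the samples, RMRP was the RNA with most IP reads of all. It had 4203, 8426 and 9112 IP reads against 2976, 22043 and 10743 input reads over 11 bins. The input outweighed the IP in both UACC-62 samples, and the log2 was 0.12, -1.54 and -0.94. The bin in capitals, nt 235 to 254, was listed only in UACC-62, with 2848 and 3281 IP reads against 11188 and 2085 input reads. Over the 8 bins listed in all samples the log2 was 0.27, -1.12 and -1.33, with the 2 UACC-62 replicates in the reverse order. RMRP therefore lay below the snRNAs in each sample, but its replicates cannot be ranked.

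Reads were not spread evenly along the RNAs, in the IP or in the input. In RMRP the 3′-most of 3 equal segments held 79.8%, 92.8% and 80.0% of the IP reads and 70.4%, 94.3% and 82.1% of the input reads. For misc_RNA this share was 86.2%, 84.7% and 88.8% in the IP and 79.1%, 83.8% and 83.5% in the input. The snRNAs had 71.4%, 85.1% and 82.1% of IP reads there, more than in the input (54.9%, 68.7% and 78.5%). In RNU4-1 1 bin, nt 121 to 140, held 6058 of 6350, 1677 of 1767 and 1222 of 1276 IP reads. The H/ACA RNAs differed in shape, with 53.1%, 47.1% and 48.6% of IP reads in the middle segment and 42.1%, 46.0% and 47.6% in the 3′ segment. The input had a similar shape, with 55.6%, 56.2% and 52.7% in the middle segment and 33.8%, 36.2% and 39.2% in the 3′ segment. SNORA73B, which held the most IP reads of the H/ACA RNAs and so weighs on these shares, showed a pair of maxima. They lay at nt 91 to 110 (666, 214 and 647 IP reads) and at nt 151 to 170 (793, 330 and 1170), with 169, 79 and 162 between them at nt 131 to 150. In SNORA74A the maximum at nt 132 to 151 had 253, 252 and 843 IP reads.

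**Figure D3:**
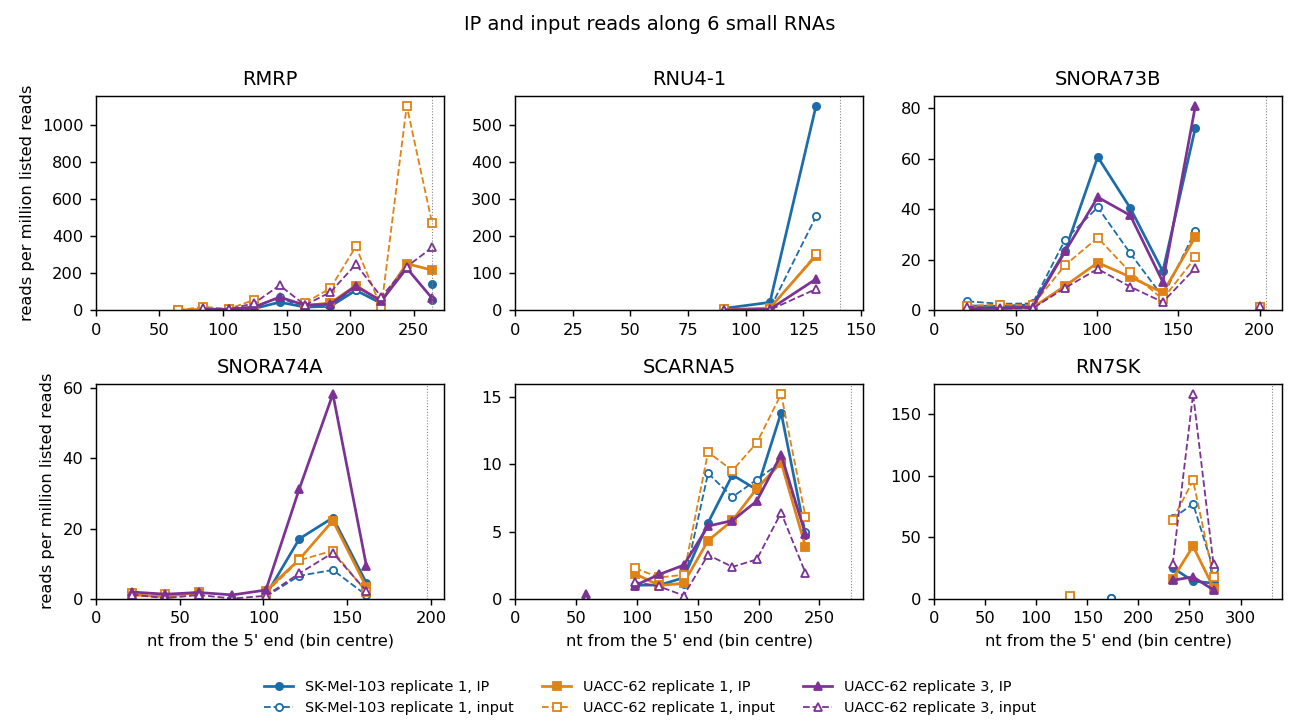
IP reads (solid lines, filled symbols) and input reads (dashed lines, open symbols) along 6 small RNAs, by distance of the bin centre from the 5′ end in nt, each scaled to the total of its own column. Lines break where a bin was not listed, and the dotted line marks the 3′ end. SNORA73B has 2 maxima in both IP and input, while RMRP and RNU4-1 peak near the 3′ end.

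The 3 samples ordered the RNAs differently, and the small RNAs differed more between the UACC-62 replicates than protein-coding genes did. Over the 94 small RNAs with 20 reads in every sample, the median absolute difference between the UACC-62 replicates was 0.97 on the log2 scale, compared with 0.31 for 8794 protein-coding genes under the same minimum. Apart from this minimum, the sets were not matched for depth. The median absolute difference between SK-Mel-103 and the mean of UACC-62 was 0.74, and 0.45 for protein-coding genes. This sets 1 sample against a mean, and is not directly comparable with the difference between single replicates. Of the 94 RNAs, 71 were higher in UACC-62 R3 than in R1, including 28 of 29 H/ACA RNAs, beside 71.8% of protein-coding genes. SK-Mel-103 lay above both UACC-62 replicates in 54 RNAs (57.4%) and below both in 7 (7.45%), where protein-coding genes had shares of 57.5% and 21.6%. The 54 RNAs comprised 19 of 21 snRNAs, 17 of 23 misc_RNA genes, 15 of 41 snoRNAs, 2 of 8 scaRNAs and RMRP. The share above both was therefore at the background, and of the types with several genes it was most frequent in snRNAs. With 1 sample of SK-Mel-103, cell line and sample cannot be told apart.

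**Figure D4:**
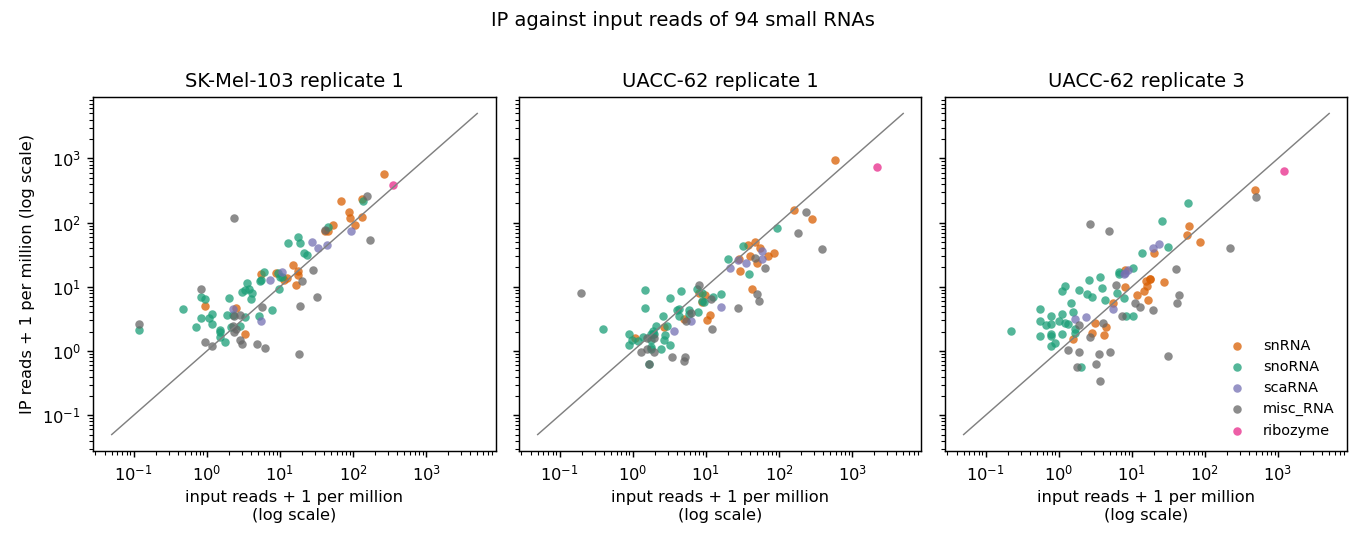
IP against input reads, with 1 read added and each scaled to the total of its column, for the 94 small RNAs with at least 20 IP plus input reads in every sample (log axes). The line marks equal shares of IP and input. Most snoRNAs lie above the line in SK-Mel-103 R1 and UACC-62 R3 (36 and 37 of 41) but 19 of 41 in UACC-62 R1, and RMRP is furthest to the right in each panel.

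The bins were searched for UGU, a core of the GU-rich elements named with CELF1, on the transcript strand. UGU was in 279 of 824 bins (33.9%), beside 32.6% of all listed bins. The share was 41.0% in H/ACA snoRNAs, 37.6% in C/D snoRNAs, 37.2% in scaRNAs, 25.6% in snRNAs and 25.1% in misc_RNA, and RMRP had it in 2 of 11 bins. UGUU was present in 11.2% of the bins (11.5% of all listed), UGUG in 12.4% (9.73%), GUGU in 7.52% (6.93%) and CUGU in 11.7% (10.1%), where these motifs overlap UGU and, in part, one another. The median log2 of bins with UGU was 0.51, -0.13 and 1.11, and of those without 0.63, -0.25 and 0.67, so the direction was not the same in all samples. Among all listed bins the medians were 0.63, 1.01 and 0.89 with UGU and 0.36, 0.58 and 0.62 without. Small RNA bins had 48.7% G and C, compared with 41.8% in all listed bins.

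The mRNAs of the proteins that associate with these RNAs were mostly poorer in the IP than in the input. Of 47 such genes, 42 had 20 IP plus input reads in every sample, and of these 34 were below 0 in all 3 samples, 4 above and 4 of mixed sign, beside 49.9% and 27.6% of protein-coding genes. The medians over the 42 genes were -0.81, -1.65 and -1.31, and -0.18, -0.60 and -0.37 over all 8794 protein-coding genes. All 6 genes of the signal recognition particle, all 4 of the H/ACA complex and 6 of 7 of RNase P and MRP were below 0 in all samples. DKC1, the pseudouridine synthase of H/ACA particles, had -0.70, -1.72 and -1.17, and FBL, the methyltransferase of C/D particles, -2.09, -2.45 and -2.58. The 4 genes above 0 were SNU13, which binds C/D RNAs and U4 (2.19, 2.95 and 3.04, with 5612, 17702 and 20678 IP reads), CCNT1, the cyclin partner of the kinase held by 7SK (2.03, 2.11 and 2.55), LSM11 of the U7 particle (1.62, 1.32 and 1.99) and SNRPD1, a core protein of spliceosomal particles (1.21, 1.29 and 1.01).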

How the data were processed

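Bins were counted and placed as follows. As deposited by the authors, each list gives per 20 bp bin a count of IP reads, a p-value from Piranha's zero-truncated Poisson regression and a covariate ratio for the input, where 0.01 marks no input. The authors removed ribosomal RNA, sequenced 40 nt single ends and aligned them with TopHat2 2.0.4 and Bowtie 0.12.7 to GRCh37 (per the labels). The authors state an FDR of 0.05 for the peak calls, and the p-values in the lists were all below 0.05. IP and input are separate samples, 6 in all, and the input was read only through the IP lists. Replicates 1 and 3 of UACC-62 are biological duplicates.

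The covariate rises in equal steps of 1 input read, so each value divided by its smallest step gave the input reads (largest deviation from a whole number 0.00196). These were divided by the total over listed bins with 1 read added, as for the IP. Bins without input were 9.69%, 15.9% and 29.2% of the lists. Genes were taken from GENCODE version 44 lifted to GRCh37, which has no scaRNA type, so scaRNAs were split from snoRNAs by name, and RN7SK, annotated in 2 types, was counted as misc_RNA. RN7SL1, RPPH1, RNU2-1, RNU11, RNU12, SCARNA2 and SCARNA10 were not analysed here. Python 3.11.15, pandas 2.3.3, scipy 1.17.1 and pysam 0.24.0 were used, and the computation was tested on simulated data. Named per type were the 5 genes with most IP reads, the 2 highest and 2 lowest by mean log2 among genes with 20 IP plus input reads in every sample, and a list of known RNAs. The members and lists were chosen with earlier results of these data known. Alternatives were a filter of more than 30 reads, p under 0.01, another total, a pseudocount of 0.5, exon overlaps, the median over genes, the top gene left out, common bins, strand, whole bins and each sample left out. Single-copy bins, RN7SK as snRNA, the copies left out, and the settings for pairs of types were chosen after seeing the data. The sequence of 1 RNA is not reported here.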

Additional observations from a re-analysis of the deposited data

Results flagged for a closer look

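Among the types and the named RNAs, 2 types and 5 RNAs had SK-Mel-103 above 0 and both UACC-62 samples below 0, on the log2 scale. RMRP is counted in both. The share of all genes with this pattern was not counted. SK-Mel-103 lay above both UACC-62 replicates in 57.4% of the 94 small RNAs and in 57.5% of protein-coding genes. The difference between the lines was not tested. The type misc_RNA had 0.16 in SK-Mel-103 and -1.53 and -0.77 in UACC-62. RMRP, the only ribozyme gene with a listed bin, had 0.12 against -1.54 and -0.94. RN7SL2 had 0.76 against -0.67 and -0.99, and RNU6ATAC had 0.031 against -2.21 and -1.45. SCARNA1 had 0.80 against -1.73 and -0.31. SNORD3A had 1.22 against -0.57 and -1.55. Without RN7SKP76 and RN7SKP227 the SK-Mel-103 value of misc_RNA was -0.24, so that all samples were then below 0.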

How the results depend on the processing

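No paired analysis was possible because SK-Mel-103 and UACC-62 share only replicate number 1, while each IP sample was set against its own input and types were compared within a sample. With the listed strand taken as the transcript strand, 156 bins remained in the types, and the means were 2.34 for snoRNAs and 0.96 for misc_RNA. The number of bins was 176 with more than 30 IP reads, 541 without exons of other genes and 294 when listed in all samples. Without the gene with most IP reads in each type, 7 pairs of types met the rule instead of 4. Leaving out each sample in turn gave means of 0.37 to 1.11 for snoRNAs, -0.15 to 0.54 for snRNAs, -0.26 to 0.55 for scaRNAs, -1.15 to -0.30 for misc_RNA and -1.24 to -0.41 for RMRP, and 641 to 745 bins. The mean of snRNAs was also below 0 (-0.07) as a median over genes. The ribozyme type has 1 gene with a listed bin and gave no value without it. Values that rest on few reads, as in C/D snoRNAs and Y RNAs, are limited by depth, and bins that did not pass in a list have no value there.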
